A study of Mus musculus with 18 samples.

Results

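The 10 genes described here encode immediate early transcription factors, namely the AP-1 proteins Fos, Fosl2, Jun, Junb and Jund, the related leucine zipper proteins Atf3 and Maff, the zinc finger proteins Egr1 and Egr2, and Myc. They were taken by symbol from a written list. The rule itself uses no measured value, but the list was written with earlier results of these data known. All 10 were among the 11243 protein-coding genes of the count table. The cells were RAW264.7, a mouse macrophage line. One group received the vehicle DMSO (Veh), the next 500 ng/mL lipopolysaccharide (LPS) for 6 h, and the last the same LPS for 6 h with 100 nM torin1, which was added 15 min earlier (LPS_Torin1). Torin1 inhibits the kinase mTOR. No group received torin1 without LPS, and the labels give no duration for the vehicle. In each of 3 independent experiments, total mRNA and heavy polysome-associated mRNA were sequenced from each lysate, which made 18 libraries of 9 lysates. The study asked how LPS and mTOR change mRNA abundance and translation.

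Immediate early genes are switched on within minutes of a stimulus without new protein synthesis, and their mRNAs are usually short-lived. LPS binds Toll-like receptor 4, and the MAP kinases and NF-kB activated downstream act on the promoters of these genes through factors such as the serum response factor and its ETS partners. AP-1 is a dimer of leucine zipper proteins: Fos, Fosl2 and other Fos proteins pair with Jun, Junb or Jund, whereas Atf3 and the small Maf protein Maff join in dimers that often repress. Egr1 and Egr2 bind GC-rich sites, and Myc pairs with Max on E-boxes and drives growth genes. A sample taken at 6 h follows the first wave of this response.

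Each library held between 27800983 and 47725557 counts on the table's genes, and the 10 genes had between 49 and 42255 counts in a library. Levels are given as CPM, the count scaled to the library total, after scaling by edgeR's TMM method. Of 9 macrophage markers 8 were in the table, with a summed level between 10700 and 21800 CPM, and Mertk was not. None of the 17 listed markers of T cells, B cells, fibroblasts and epithelium was in the table. Tnf, Il1b and Ptgs2, known LPS targets, summed to between 287 and 584 CPM in the Veh libraries, to between 9340 and 12300 CPM with LPS and to between 5420 and 6810 CPM with LPS and torin1, while Il6 and Nos2 were not in the table.

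The annotation of GRCm38 (GENCODE vM21) places Atf3 on chromosome 1 from 191170296 to 191218039, Jun on chromosome 4 from 95049034 to 95052222, Fosl2 on chromosome 5 from 32135801 to 32157842, Jund on chromosome 8 from 70698949 to 70700616 and Junb on the same chromosome from 84974484 to 84978718, Egr2 on chromosome 10 from 67535475 to 67542188, Fos on chromosome 12 from 85473890 to 85477273, Myc on chromosome 15 from 61985391 to 61990374, and Maff on the same chromosome from 79346621 to 79359076. Egr1 lies on a further chromosome. Jun, Junb and Jund consist of 1 exon each. Jund and Junb are also among the most GC-rich transcripts measured, with 67.1% and 62.6% G and C, above 99.9% and 98.9% of the genes with a gene model, whose median was 50.3%. Egr2, Fos and Atf3 lie near that median with 51.4%, 51.9% and 52.2%. The pentamer ATTTA, found in many unstable mRNAs, occurred in the 3′ UTR of all 10, from 1 copy in Jund to 8 in Fosl2, and in 67.0% of all genes with a 3′ UTR. Exons of other genes on the opposite strand overlap Jun by 232 bases (Junos), Junb by 173 bases (Prdx2) and Jund by 877 bases (Gm11175). How strands were counted is not given in the sources used here, so the levels of these 3 genes are uncertain to that extent.

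RefSeq promoter windows (GRCm38.p6), from 250 bases before to 50 bases after a start, were held for 8 of the 10 genes, with 14 windows in all. Both strands were searched. Egr2 has 5 windows, of which 4 hold a CArG box, the binding site of the serum response factor, where 1.63% of all 32851 windows hold one. These 4 windows contain 2 different boxes. Egr2 was the only 1 of the 8 genes with a CArG box in a window, and sites beyond the windows were not searched. Egr2 is shown first because it had the largest change with torin1 among the 10, Fos because it fell in each comparison, and Maff because its second window was the only one of the 14 with the cyclic AMP response element TGACGTCA, which 1.79% of all windows hold. Capitals mark the CArG box, the Sp1 motif GGGCGG and the ETS motif CCGGAA in the first Egr2 sequence, chr10:67537316-67537615, the CArG box in the second, chr10:67537769-67537848, TATAAA and GGGCGG in Fos, chr12:85473790-85473909, and TGACGTCA, GGGCGG and CCGGAA in Maff, chr15:79347410-79347569, each on the plus strand and with motifs in either orientation. Both Egr2 starts shown have the box at position −72 from the start. In the second window 2 of the 3 CCGGAA matches, on opposite strands, overlap each other.
Egr2, second annotated start: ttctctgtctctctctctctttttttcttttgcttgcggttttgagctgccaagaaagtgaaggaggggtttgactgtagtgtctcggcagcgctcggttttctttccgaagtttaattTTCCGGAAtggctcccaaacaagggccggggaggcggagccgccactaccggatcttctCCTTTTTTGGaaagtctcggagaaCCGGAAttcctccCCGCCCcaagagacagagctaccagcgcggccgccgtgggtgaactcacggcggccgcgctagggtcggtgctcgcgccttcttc
Egr2, next annotated start: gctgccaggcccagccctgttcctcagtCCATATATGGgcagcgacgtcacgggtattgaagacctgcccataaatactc
Fos: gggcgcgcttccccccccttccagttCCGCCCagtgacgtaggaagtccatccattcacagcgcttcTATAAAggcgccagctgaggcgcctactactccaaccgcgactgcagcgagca
Maff, second annotated start: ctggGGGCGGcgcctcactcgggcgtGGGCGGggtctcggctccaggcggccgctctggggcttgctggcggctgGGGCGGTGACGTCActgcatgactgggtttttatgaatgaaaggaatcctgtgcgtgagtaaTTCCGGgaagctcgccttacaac

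The motifs were also common elsewhere. GGGCGG occurred in 8 of the 14 windows and in 35.66% of all windows, with 5 copies in the Atf3 window. TATAAA occurred in 2 windows, those of Fos and Junb, and in 13.62% of all windows. CCGGAA was in 2 windows against 14.9% of all, the E-box CACGTG in 2 against 7.15%, and the AP-1 motifs TGAGTCA or TGACTCA in 0 of the 14 against 5.2%. A match describes letters only.

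The experiments differed from each other in these genes more than in most. The SD of log2 CPM between lysates of a treatment was above the median of all genes, 0.175 in total and 0.244 in polysome-associated mRNA, for 9 of the 10 genes in both RNA types, and Fosl2 was the exception with 0.119 and 0.123. It reached 0.659 for Atf3 in total mRNA and 0.946 for Jund in polysome-associated mRNA. The differences returned in both libraries of a lysate: across the 9 lysates the deviations in total and polysome-associated mRNA had a Pearson r between 0.218 (Fosl2) and 0.982 (Atf3), where the median gene had 0.541. The points share lysates, and no test was made.

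Jun, Junb, Jund and Egr1 rose and fell together from lysate to lysate, with a Pearson r of their deviations between 0.73 and 0.939 in polysome-associated mRNA over the 9 libraries, and between 0.436 and 0.896 in total mRNA. The plot of differences between experiments shows this beside the GC-rich genes at large. The median deviation of the tenth of genes highest in GC (1 of every 10, at least 58.2% G and C) was 0.44 in the polysome library of experiment 2 with LPS and torin1, 0.32 in that of experiment 2 with LPS and 0.25 in the total library of experiment 2 with LPS. It was −0.30 in the total library of experiment 1 with LPS. Jund deviated by 1.32, 1.18, 0.83 and −0.34 in the same 4 libraries. The sign of the deviation was that of the GC-rich genes in 9 of 9 polysome libraries for Jun, Junb and Egr1 and in 8 of 9 for Jund. In total mRNA it was so in 7 of 9 libraries for each of the 3 Jun genes and in 5 of 9 for Egr1. Among the other genes it was so in 4 (Maff) to 7 (Fos, Atf3 and Myc) of 9 polysome libraries. In total mRNA their counts ran from 2 (Maff) to 6 (Egr2 and Myc) of 9 libraries. Maff has 57.6% G and C, and Egr1 has 57.3%. Results were also computed with a correction for the GC trend of each library, chosen after seeing the data, and are given beside the uncorrected ones where a call changed or a called value moved by over 1.5 times.

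**Figure D1:**
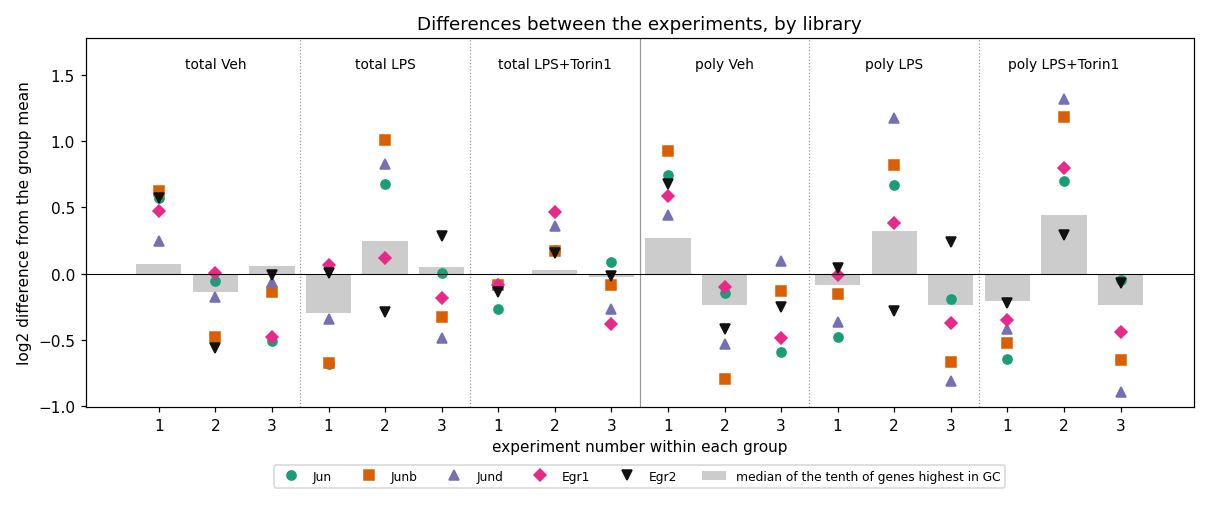
Log2 difference of each library from the mean of its group (y axis) for Jun, Junb, Jund, Egr1 and Egr2 (points) and for the median of the tenth of genes highest in GC (bars), with the 6 groups and their 3 experiments along the x axis. In the polysome libraries of experiment 2 with LPS and with LPS and torin1, Junb and Jund lie above the bars, and Jund reaches 1.18 and 1.32.

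LPS raised most of the 10 genes in total mRNA, lowered Fos and left Egr2 without a detectable change. Myc rose 10.7-fold, Maff 6.01-fold, Atf3 5.77-fold and Fosl2 3.94-fold. Of the 10 genes 8 were called higher and 1 lower at the study's false discovery rate of 0.25 (edgeR's quasi-likelihood test, Benjamini-Hochberg adjustment over all 11243 genes), where 32.2% of all genes were called higher and 34.3% lower. The median log2 fold change of the 10 genes was 1.15, beside −0.02 over all genes. In such bulk samples, fewer cells that express a gene and less of its RNA per cell cannot be told apart.

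Fos, the founding partner of Jun in AP-1, stood at 187, 134 and 122 CPM in the total mRNA of the 3 Veh lysates and at 82.1, 73.0 and 86.5 CPM with LPS. All LPS values were below all Veh values. The log2 fold change was −0.88 (SE 0.27, edgeR adjusted p = 0.0236), a 1.83-fold lower level. In polysome-associated mRNA Fos went from 262, 167 and 135.3 CPM to 99.2, 87.7 and 73.3 CPM, a log2 fold change of −1.12 (SE 0.37, edgeR adjusted p = 0.0392). Without experiment 1, the highest Veh lysate, the fall in polysome-associated mRNA was −0.90 with an edgeR adjusted p of 0.263.

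Fosl2, which takes the place of Fos in later AP-1 dimers, went the other way. Its total mRNA was at 36.2, 42.9 and 41.4 CPM in Veh and at 161, 141 and 173 CPM with LPS, and its SD between lysates, pooled over treatments, was the lowest of the 10 genes. Polysome-associated Fosl2 mRNA rose from 49.8, 45.0 and 48.5 CPM to 170.3, 173 and 188 CPM. The log2 fold changes were 1.98 (SE 0.11, edgeR adjusted p = 9.69e-07) and 1.89 (SE 0.14, edgeR adjusted p = 1.02e-05).

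Atf3, a leucine zipper factor known to restrain inflammatory genes in macrophages, was the most abundant of the 10 per length after LPS, at 193 ± 86.7 CPM per kb of exon (SD, n = 3) in total mRNA, ahead of Junb with 71.7 ± 47.5. These 2 ranges, 92.7 to 243 and 39.2 to 126, overlapped. In Veh lysates Fos led with 62.8 ± 14.8 CPM per kb, and its lowest lysate, at 52.0, lay above the highest of Atf3, at 48.6. Atf3 total mRNA was at 72.6, 104.6 and 38.7 CPM in Veh and at 524, 523 and 199.6 CPM with LPS. Experiment 3 was lowest in both groups, and the groups did not overlap. The log2 fold change was 2.53 (SE 0.43, edgeR adjusted p = 0.000793) in total and 2.64 (SE 0.46, edgeR adjusted p = 0.00151) in polysome-associated mRNA.

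Maff, a small Maf protein without a transactivation domain, was the lowest of the 10 per length in Veh, at 0.827 ± 0.271 CPM per kb. It rose from 2.16, 2.84 and 1.44 CPM to 16.9, 10.97 and 11.2 CPM in total mRNA, a log2 fold change of 2.59 (SE 0.27, edgeR adjusted p = 3.92e-05). Polysome-associated Maff mRNA rose from 3.09, 2.81 and 1.62 CPM to 26.7, 18.3 and 14.5 CPM, a log2 fold change of 2.99 (SE 0.30, edgeR adjusted p = 5.34e-05).

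Myc had the largest rise of the 10. Its total mRNA was at 2.86, 3.21 and 3.52 CPM in Veh and at 23.4, 35.2 and 43.9 CPM with LPS, a log2 fold change of 3.42 (SE 0.22, edgeR adjusted p = 2.28e-06). Polysome-associated Myc mRNA went from 5.23, 3.49 and 3.83 CPM to 29.1, 43.3 and 43.6 CPM, a log2 fold change of 3.21 (SE 0.25, edgeR adjusted p = 1.13e-05). No LPS library came near a Veh library in either RNA type.

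The Jun genes, the obligate partners of the Fos proteins, rose less and less evenly. Junb total mRNA was at 87.7, 40.5 and 51.4 CPM in Veh and at 90.2, 290.4 and 115 CPM with LPS. The groups did not overlap, but experiment 1 of LPS lay just above experiment 1 of Veh while experiment 2 lay far above all others. The log2 fold change was 1.47 (SE 0.41, edgeR adjusted p = 0.0140). Jun went from 23.6, 15.1 and 10.9 CPM to 16.8, 44.0 and 27.4 CPM with overlap, a log2 fold change of 0.83 (SE 0.34, edgeR adjusted p = 0.0696). Jund went from 7.67, 5.62 and 6.10 CPM to 7.41, 17.3 and 6.65 CPM, also with overlap, a log2 fold change of 0.70 (SE 0.34, edgeR adjusted p = 0.119). Without experiment 2 the log2 fold change was 0.36 for Jun (edgeR adjusted p = 0.488) and 0.03 for Jund (edgeR adjusted p = 0.916), and without experiment 3 it was 0.65 for Jun (edgeR adjusted p = 0.306). With the GC correction Jund was at 1.07 (edgeR adjusted p = 0.00376).

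Egr1, the zinc finger factor most often used as a marker of the immediate early response, went from 59.7, 43.2 and 30.7 CPM to 63.4, 65.8 and 53.1 CPM in total mRNA. Each experiment was higher with LPS, although the groups overlapped, and the log2 fold change of 0.45 (SE 0.25) passed the study's threshold with an edgeR adjusted p of 0.171. It did not pass without experiment 2 (edgeR adjusted p = 0.361) or without experiment 3 (edgeR adjusted p = 0.314). With the experiment as a replicate block the log2 fold change of Egr1 was 0.48 (edgeR adjusted p = 0.0442). Egr2, its family member, was at 15.1, 6.64 and 9.94 CPM in Veh and at 11.5, 9.29 and 14.01 CPM with LPS, a log2 fold change of 0.14 (95% confidence interval −0.43 to 0.71, edgeR adjusted p = 0.690). Without experiment 1 it was 0.51 (edgeR adjusted p = 0.166).

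In polysome-associated mRNA, 4 of the 10 genes were called higher with LPS, namely Fosl2, Atf3, Maff and Myc, where 26.4% of all genes were called higher, and Fos was the 1 called lower, where 28.7% were. The 3 Jun genes and Egr1 missed the threshold there. Jun had a log2 fold change of 0.53 (edgeR adjusted p = 0.390), and without experiment 1 it was 1.23 (edgeR adjusted p = 0.0856). Junb was at 257, 77.8 and 123.8 CPM in Veh and at 172, 338 and 119.9 CPM with LPS, a log2 fold change of 0.46 with a 95% confidence interval from −0.82 to 1.75. Jund was at 19.9, 9.94 and 15.6 CPM in Veh and at 13.1, 38.9 and 9.47 CPM with LPS, a log2 fold change of 0.44, and without experiment 2 it was −0.67 (edgeR adjusted p = 0.0552). With the GC correction the log2 fold changes in polysome-associated mRNA were 0.66 for Jun, 0.97 for Junb, 1.09 for Jund and 0.63 for Egr1, and the edgeR adjusted p-values 0.154, 0.0256, 0.00504 and 0.0643. The corrected fit called 8 of the 10 genes higher, where 33.6% of all genes with a gene model were called higher, and 1 lower, where 29.6% were. The part of library GC content in these values was not tested beyond the correction.

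**Figure D2:**
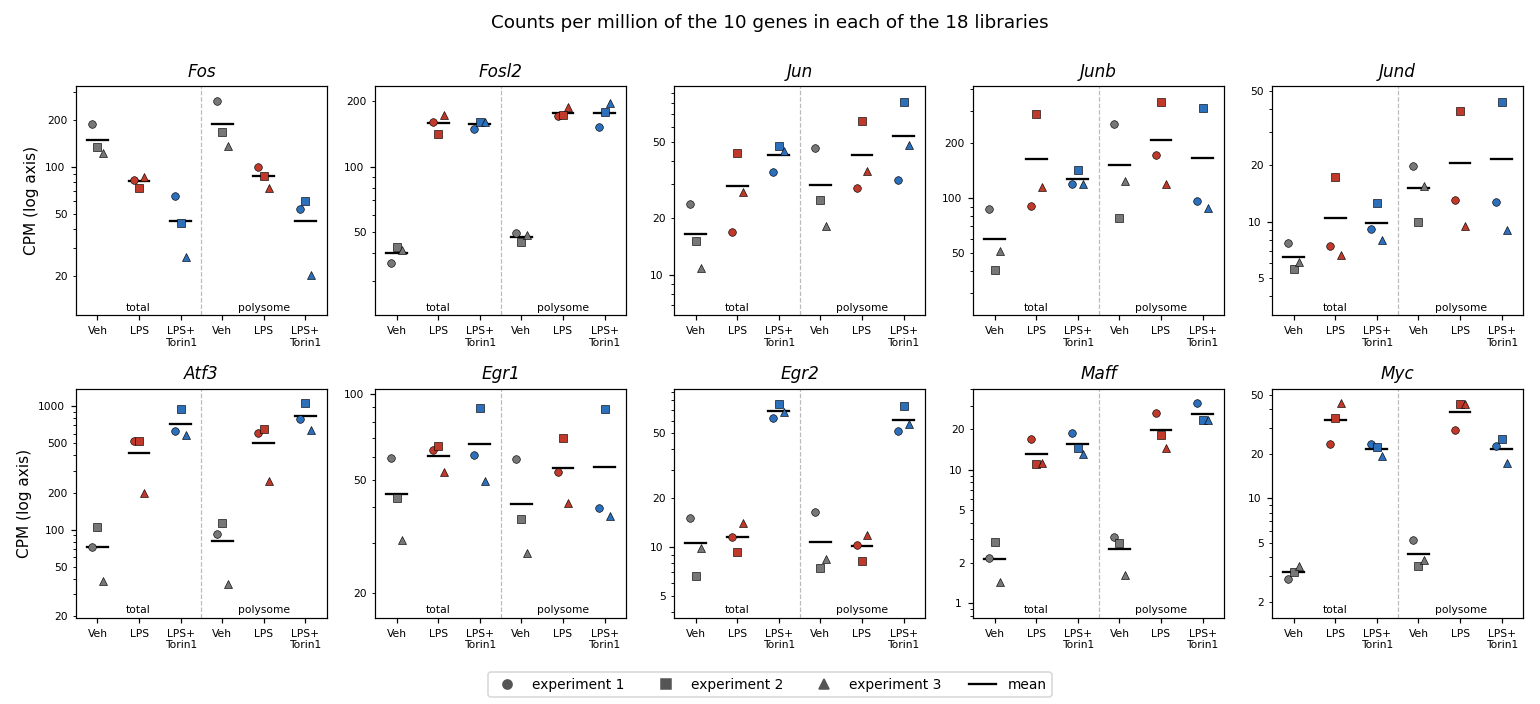
CPM on a log axis (y axis) for each of the 10 genes in the 6 groups (x axis, total mRNA left and polysome-associated mRNA right of the dashed line), with a symbol for each experiment and a line for the mean of 3. Egr2 is between 51.6 and 76.0 CPM with LPS and torin1 and at most 16.5 CPM elsewhere, while Myc rises in every LPS library and Fos falls from left to right in both RNA types.

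Torin1 changed 4 of the 10 genes in the total mRNA of LPS-treated cells. Egr2 rose 5.91-fold and Atf3 1.74-fold, and Fos and Myc fell 1.79-fold and 1.57-fold. Of all genes 27.3% were called higher and 26.4% lower, so that 2 higher and 2 lower of 10 is close to the background. The median log2 fold change of the 10 genes was 0.06, beside 0.00 over all genes.

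Egr2, a zinc finger factor with known roles in myelination and in immune cells, was at 62.1, 76.0 and 67.7 CPM in the total mRNA of lysates with LPS and torin1. All 3 values lay above the highest value with Veh or LPS alone, 15.1 CPM. The log2 fold change against LPS was 2.56 (SE 0.26, edgeR adjusted p = 0.000198). In polysome-associated mRNA, Egr2 was at 16.5, 7.45 and 8.44 CPM with Veh, at 10.35, 8.16 and 11.9 CPM with LPS, and at 51.6, 73.8 and 57.2 CPM with LPS and torin1, a log2 fold change of 2.62 against LPS (SE 0.31, edgeR adjusted p = 0.00104). Over the alternatives tried the log2 fold change lay between 2.35 and 2.73 in total mRNA. Since there were no lysates with torin1 alone, the effects of torin1 and of its combination with LPS cannot be told apart.

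Atf3, already raised by LPS, was at 631, 954 and 585 CPM with LPS and torin1, above all 3 LPS libraries. The log2 fold change of 0.80 (SE 0.40) passed the threshold with an edgeR adjusted p of 0.163. Without experiment 2 it was 0.75 (edgeR adjusted p = 0.276), and with the experiment as a replicate block 0.90 (edgeR adjusted p = 0.00807). In polysome-associated mRNA Atf3 was at 607, 657 and 247 CPM with LPS and at 783, 1069 and 648 CPM with LPS and torin1, a log2 fold change of 0.75 (SE 0.43, edgeR adjusted p = 0.277). It passed under 5 alternatives, with an adjusted p of 0.226 in edgeR with the GC correction, 0.206 in DESeq2, 0.224 in edgeR on only the 2 treatments compared, 0.0212 in edgeR with the experiment as a replicate block (log2 fold change 0.87) and 0.00914 in edgeR with the block and the correction.

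Myc fell from the level reached with LPS, to 23.4, 22.3 and 19.3 CPM in total mRNA and to 22.8, 25.2 and 17.2 CPM in polysome-associated mRNA. Experiment 1 was at 23.4 CPM with LPS alone as well, so that the fall in total mRNA came from experiments 2 and 3. The log2 fold changes were −0.65 (SE 0.20, edgeR adjusted p = 0.0324) and −0.81 (SE 0.23, edgeR adjusted p = 0.0412). Without experiment 3 they were −0.36 (edgeR adjusted p = 0.333) and −0.56 (edgeR adjusted p = 0.420). Myc with torin1 stayed 6.78-fold above Veh in total mRNA.

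Fos fell further with torin1, to 64.7, 43.6 and 26.3 CPM in total mRNA, each below the lowest LPS library. The log2 fold change was −0.84 (SE 0.27, edgeR adjusted p = 0.0423). Polysome-associated Fos mRNA was at 53.9, 60.2 and 20.4 CPM, a log2 fold change of −0.93 (SE 0.37, edgeR adjusted p = 0.121). The edgeR adjusted p was 0.336 without experiment 1 and 0.266 without experiment 3. With the experiment as a replicate block the log2 fold change was −1.035 (edgeR adjusted p = 0.0206). Of the 10 genes, Fos was the only one called lower in all 3 pairs of treatments, in both RNA types. These comparisons share groups, so that they do not count as independent of each other.

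No change of Fosl2 with torin1 was detected. Its total mRNA was at 149.6, 161 and 160.0 CPM, a log2 fold change of −0.01 with a 95% confidence interval from −0.25 to 0.23, and its polysome-associated mRNA at 152, 179 and 196 CPM, a log2 fold change of 0.01 with an interval from −0.29 to 0.32. The confidence intervals of the others were wider. Jun, at 34.97, 47.9 and 44.9 CPM in total mRNA, had a log2 fold change of 0.53 (edgeR adjusted p = 0.264), and with the replicate block 0.57 (edgeR adjusted p = 0.196). It was higher in each of the 3 experiments. It also passed in DESeq2 (adjusted p = 0.231). In edgeR it passed with the block and the GC correction, on only the 2 treatments compared and without experiment 2 (adjusted p = 0.183, 0.238 and 0.154). With the GC correction alone it did not (edgeR adjusted p = 0.259), and the highest adjusted p over the alternatives was 0.555. Junb, at 119.7, 143 and 119.7 CPM, had −0.38 (edgeR adjusted p = 0.520), and with the GC correction −0.51 (edgeR adjusted p = 0.184). Uncorrected Junb was lower only in experiment 2, where it stood at 290.4 CPM with LPS, and higher in experiments 1 and 3. Jund, Egr1 and Maff had −0.08, 0.14 and 0.25, with edgeR adjusted p-values of 0.883, 0.721 and 0.483.

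In polysome-associated mRNA torin1 raised 1 of the 10 genes, Egr2, where 20.3% of all genes were called higher, and lowered 2, Fos and Myc, where 18.2% were called lower. With the replicate block Atf3 (above) and Maff were called as well, Maff with a log2 fold change of 0.46 (edgeR adjusted p = 0.0774). Maff was at 26.7, 18.3 and 14.5 CPM with LPS and at 31.6, 23.5 and 23.5 CPM with LPS and torin1, higher in each of the 3 experiments.

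**Figure D3:**
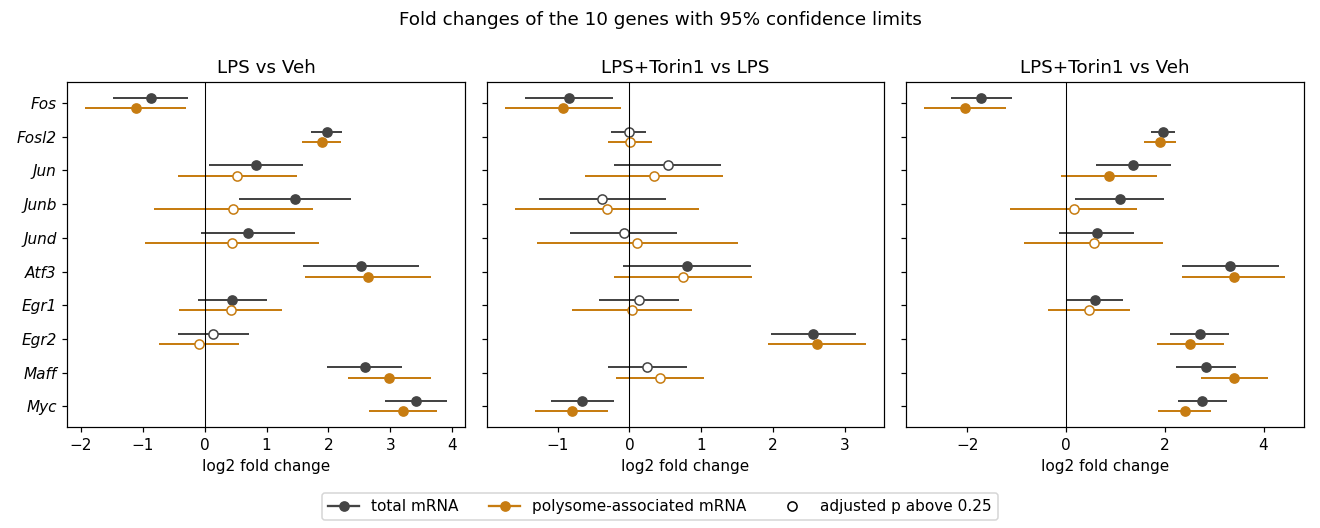
Log2 fold changes (x axis) of the 10 genes (y axis) in the 3 pairs of treatments, in total mRNA (dark) and polysome-associated mRNA (orange), with 95% confidence intervals as lines and open circles where the edgeR adjusted p was above 0.25. Egr2 stands at 2.56 and 2.62 with torin1 against LPS, and the intervals of the 2 RNA types overlap for each gene.

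Against Veh, the combination of LPS and torin1 raised 9 of the 10 genes in total mRNA and lowered Fos, where 33.1% of all genes were called higher and 33.6% lower. Atf3 was 10.04-fold, Maff 7.15-fold, Myc 6.78-fold, Egr2 6.52-fold and Fosl2 3.90-fold higher, and Fos was 3.29-fold lower. The log2 fold changes of Jun, Junb, Jund and Egr1 were 1.36, 1.09, 0.62 and 0.58, with edgeR adjusted p-values of 0.00774, 0.0477, 0.163 and 0.0801. Egr1 without experiment 2 was at 0.29 (edgeR adjusted p = 0.479).

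In polysome-associated mRNA the combination raised 6 genes, Fosl2, Jun, Atf3, Egr2, Maff and Myc, where 28.5% of all genes were called higher, and lowered Fos, where 29.7% were called lower. Jun, at 31.7, 81.0 and 48.1 CPM against 46.7, 24.9 and 18.1 CPM in Veh, had a log2 fold change of 0.87 (edgeR adjusted p = 0.147), and the call was lost without experiment 2 (edgeR adjusted p = 0.530) and without experiment 3 (edgeR adjusted p = 0.407). Junb and Jund turned with experiment 2. With all experiments their log2 fold changes were 0.15 and 0.56, and without experiment 2 they were −1.04 (edgeR adjusted p = 0.0222) and −0.70 (edgeR adjusted p = 0.0425). With the GC correction and all experiments they were 0.57 (edgeR adjusted p = 0.149) and 1.15 (edgeR adjusted p = 0.00347), and Egr1 was at 0.64 (edgeR adjusted p = 0.0572). The corrected fit called 9 genes higher, where 33.2% of genes were called higher, and Fos lower, where 31.5% were.

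Whether the share of an mRNA on heavy polysomes changed with treatment was tested as the difference of the polysome-associated and the total log2 fold change, at a false discovery rate of 0.25 and a fold of at least 1.2. None of the 10 genes passed with LPS, with torin1 against LPS or with the combination against Veh, and 0% of all genes did in each comparison (edgeR), where 44, 110 and 145 of 11243 genes had an unadjusted p under 0.05 and 0 of the 10 did. This fit did not pair the 2 libraries of a lysate. In each comparison the share of all genes with such a p-value was far below the 0.05 expected without any change. The fit was thus conservative, and its lack of calls does not show unchanged translation. With anota2seq, the study reported a subset of mRNAs with altered translation efficiency after LPS, largely reversed by torin1. The tests differ, so the counts here cannot be set directly against that result. DESeq2 called 1, 13 and 1 of all genes and 0 of the 10. With each lysate as a replicate block edgeR called 0, 25 and 3 of all genes and 0 of the 10. Its unadjusted p was under 0.05 for 164, 303 and 820 of 11243 genes and for 1, 0 and 3 of the 10. The analysis of partial variance, which regresses polysome-associated on total mRNA, called 2, 7 and 2 of all genes and 0 of the 10. There the unadjusted p was under 0.05 for 697, 660 and 1213 of 11243 genes and for 1, 0 and 2 of the 10.

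In the main edgeR fit the differences themselves lay between −1.01 (Junb) and 0.40 (Maff) on the log2 scale with LPS, between −0.21 (Jun) and 0.16 (Jund) with torin1 against LPS, and between −0.97 (Junb) and 0.55 (Maff) for the combination against Veh. Their intervals were wide for most genes. Egr2, whose mRNA rose 5.91-fold with torin1, had a difference of 0.02 with a 95% confidence interval from −0.86 to 0.90, and Fosl2, the tightest, had 0.00 with an interval from −0.35 to 0.35. Myc had −0.18 with an interval from −0.84 to 0.49. When experiment 2 was left out, Junb for the combination against Veh passed with −1.84 (edgeR adjusted p = 0.186). In that fit 430 of all genes passed, where 0 did with all experiments.

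Within each treatment, polysome-associated mRNA was also compared with total mRNA. In Veh cells 5 of the 10 were called higher, where 36.3% of all genes were. Junb had a log2 ratio of 1.35 (SE 0.56, edgeR adjusted p = 0.0551), Jund 1.23 (SE 0.57, edgeR adjusted p = 0.0836), Jun 0.85, Myc 0.39 and Fosl2 0.25. With LPS the 2 called were Jund and Maff, where 34.1% of all genes were called higher, and with LPS and torin1 they were again Jund (1.13) and Maff (0.76), where 27.8% were. The last 2 counts are below the share over all genes. Without experiment 1 the count in Veh was 2 of 10, and Jund with LPS and torin1 without experiment 2 was at 0.34 (edgeR adjusted p = 0.338).

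With the GC correction Jund fell to 0.07 in Veh, −0.09 with LPS and 0.30 with LPS and torin1, Junb, Jun, Myc and Fosl2 in Veh to 0.37, 0.36, 0.10 and −0.005, Maff with LPS to 0.06 and with LPS and torin1 to 0.49, and without a block none of the calls above was kept. Egr1 was called lower in polysome-associated mRNA instead, at −0.73 in Veh, −0.68 with LPS and −0.64 with LPS and torin1. The edgeR adjusted p-values were 0.0562, 0.0698 and 0.0965. Without the correction the Egr1 ratios were −0.12, −0.14 and −0.27, with edgeR adjusted p-values of 0.797, 0.759 and 0.579. Since the correction removes differences that follow GC content, the corrected ratios compare a gene with genes of like GC content. With both the lysate block and the correction 5, 5 and 7 of the 10 genes passed in either direction, where 71.5%, 71.7% and 70% of genes did. Of the calls above, Jun (0.36, edgeR adjusted p = 0.00828) and Junb (0.34, edgeR adjusted p = 0.0221) in Veh and Maff (0.47, edgeR adjusted p = 0.00291) and Jund (0.29, edgeR adjusted p = 0.0647) with LPS and torin1 passed in that fit. The Egr1 ratios were −0.72, −0.67 and −0.64, with edgeR adjusted p-values of 6.33e-06, 9.16e-06 and 1.72e-05. With the lysate block and no correction 7, 9 and 7 of the 10 genes passed in the 3 treatments, in either direction, where 80%, 76.9% and 70.5% of all genes did.

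**Figure D4:**
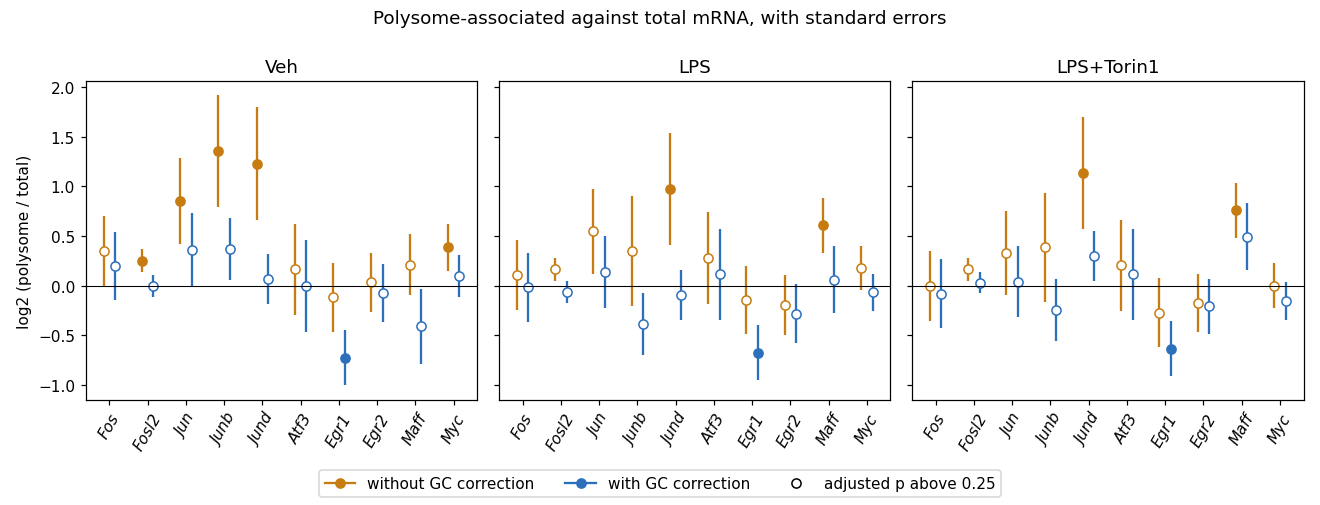
Log2 ratio of polysome-associated to total mRNA (y axis) of the 10 genes (x axis) in each treatment, without (orange) and with (blue) the GC correction, with standard errors as lines and open circles where the edgeR adjusted p was above 0.25. Jund lies at 1.23, 0.97 and 1.13 without the correction and at 0.07, −0.09 and 0.30 with it.

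Of the other AP-1, ATF, MAF, CREB and C/EBP genes of a written list, 25 of 31 were measured. With LPS 17 were called higher and 3 lower in total mRNA, with a median log2 fold change of 0.77, and with torin1 against LPS 4 were called higher and 13 lower, with a median of −0.21. For these and the lists that follow, the shares over all genes in total mRNA are 32.2% higher and 34.3% lower with LPS, and 27.3% higher and 26.4% lower with torin1, and in polysome-associated mRNA 26.4% and 28.7%, and 20.3% and 18.2%. The 3 largest rises with LPS were those of Batf2, Fosl1 and Jdp2, proteins that pair with Jun factors. Batf2 went from 2.46 ± 1.102 to 31.3 ± 8.003 CPM (SD, n = 3), Fosl1 from 7.34 ± 1.17 to 45.4 ± 11.1 CPM and Jdp2 from 18.1 ± 2.39 to 98.7 ± 14.8 CPM. With LPS and torin1 they stood at 12 ± 7.33, 15.8 ± 0.986 and 26.5 ± 7.74 CPM, log2 fold changes against LPS of −1.38, −1.53 and −1.90 with edgeR adjusted p-values of 0.0256, 0.000419 and 0.000242. In polysome-associated mRNA they were −1.51, −1.53 and −1.925, with edgeR adjusted p-values of 0.0654, 0.0128 and 0.000276. Here and in the lists that follow, genes were named by their change with LPS in total mRNA. The comparison with torin1 shares those LPS libraries and is not independent of that choice. Fosl2 of the same family stood at 158 CPM with LPS and at 157 CPM with torin1. The falls with LPS were those of Cebpa, from 26.7 to 8.36 CPM, Atf6, from 395 to 261 CPM, and Creb1, from 97.0 to 68.1 CPM. Polysome-associated mRNA of the list gave 17 higher and 3 lower with LPS, and 4 higher and 12 lower with torin1.

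Other immediate early genes, with the Egr corepressors, the serum response factor and its partners, split more evenly. Of 36 listed 30 were measured, of which 16 were called higher and 9 lower with LPS in total mRNA (median log2 fold change 0.44), and 9 higher and 9 lower with torin1 against LPS (median 0.02). In polysome-associated mRNA they were 13 and 8, and 6 and 5. Ier3, a regulator of cell survival, rose from 25.1 ± 8.85 to 446 ± 149.1 CPM with LPS and stood at 236 ± 44.0 CPM with torin1, and the kinase gene Pim1 rose from 11.5 ± 4.92 to 159 ± 26.4 CPM and on to 305 ± 57.5 CPM. Gadd45b rose from 5.98 to 53.4 CPM and was at 49.8 CPM with torin1. Klf10, Elk3 and Id2 fell with LPS, by log2 fold changes of −1.59, −1.35 and −1.08.

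In the network of Myc and Max 11 of 12 listed genes were measured, of which 4 were called higher and 4 lower with LPS in total mRNA (median log2 fold change 0.09), and 2 higher and 3 lower with torin1 (median 0.12). In polysome-associated mRNA they were 4 and 5, and 2 and 3. Mxd1, a Max partner that opposes Myc, rose from 5.95 ± 0.484 to 163 ± 63.3 CPM with LPS and stood at 54.9 ± 21.0 CPM with torin1, a log2 fold change against LPS of −1.57 (edgeR adjusted p = 0.00482). Max itself went from 86.3 to 157 and 118.8 CPM. Mnt and Mxd4, which also oppose Myc, went down with LPS, from 23.2 to 12.8 CPM and from 9.45 to 5.36 CPM, and were at 40.4 and 16.7 CPM with torin1, log2 fold changes against LPS of 1.65 and 1.64 with edgeR adjusted p-values of 0.000100 and 0.000598. Mxi1 fell with LPS by −0.96, and Mlx rose by 0.37.

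Of textbook Myc targets 16 of 17 listed were measured. Of these 7 were called higher and 2 lower with LPS in total mRNA, with a median log2 fold change of 0.18, and 0 higher and 13 lower with torin1 against LPS, with a median of −0.70, beside 0.00 over all genes. In polysome-associated mRNA they were 5 and 1, and 0 and 12. Odc1, which encodes the first enzyme of polyamine synthesis, rose from 264 ± 28.0 to 2813 ± 715 CPM with LPS and was at 2705 ± 772 CPM with torin1 (log2 fold change −0.06, edgeR adjusted p = 0.874). Npm1, a nucleolar protein gene, rose by 0.46 with LPS and fell by 0.42 with torin1 on the log2 scale, and the transferrin receptor gene Tfrc rose by 0.44 and fell by 0.94. Cad and Cdk4 fell with LPS by 0.41 and 0.19 on the log2 scale.

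Genes of the MAP kinase cascade, which signals to AP-1 and Egr genes, had no common direction. Of 34 listed 32 were measured, of which 11 were called higher and 7 lower with LPS in total mRNA (median log2 fold change 0.01), and 9 higher and 11 lower with torin1 (median −0.04). In polysome-associated mRNA they were 8 and 6, and 5 and 6. Map3k8, the kinase that links Toll-like receptors to ERK, rose from 11.5 ± 0.867 to 47.5 ± 12.1 CPM with LPS and stood at 29.8 ± 3.48 CPM with torin1. Mapkapk2, the kinase downstream of p38, rose from 502.5 to 1238 CPM. Rps6ka2, a kinase gene of the RSK family, was at 2.12 ± 0.862 CPM in Veh, at 5.58 ± 3.57 CPM with LPS and at 37.7 ± 20.0 CPM with torin1, a log2 fold change against LPS of 2.74 (edgeR adjusted p = 0.00597). Rps6ka5, Mknk2 and Map3k1 fell with LPS by log2 fold changes of −2.19, −1.26 and −0.88, and were higher with torin1 than with LPS by 1.36, 0.80 and 0.56.

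The genes outside the list whose log2 CPM was most like that of each of the 10 were ranked by the mean of Pearson's r over the 9 total and the 9 polysome libraries, as a description. Egr2 was most like Adamts13 (mean r 0.97) and Pttg1ip (0.96), Myc most like Asb1 (0.987) and Il10ra (0.985), and Atf3 most like Klf6 (0.987) and Psmd8 (0.985). Fosl2 was most like Perm1 (0.998) and Itgam (0.992), and Maff most like Cd83 (0.993) and Ccl9 (0.991). Fos was nearest to Pcyt2 (0.96) and Lsm2 (0.957). The Jun genes had Nrros (0.943) and Dusp7 (0.921) beside Jun, Trabd (0.953) and Unc93b1 (0.944) beside Junb, and Kctd13 (0.943) and Mid1ip1 (0.942) beside Jund, and Egr1 had the lowest likeness with Gltscr2 (0.898) and Nkiras2 (0.886). The points share libraries and treatments.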

How the data were processed

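Total mRNA and heavy polysome-associated mRNA were sequenced from RAW264.7 lysates made with cycloheximide and run on sucrose gradients. The authors made ribosomal RNA-depleted, stranded, paired-end libraries, aligned the reads to GRCm38 with Hisat2 in the nextflow RNAseq pipeline 1.3 and counted them with featureCounts on an Ensembl annotation, and they deposited raw counts per gene. Genes with a count of 0 in any library had been removed, so a gene absent from the table may have been low in 1 group only. The strand setting and the Hisat2 and annotation versions are not given in the sources used here.

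From these counts, edgeR 4.0.16 in R 4.3.3 gave quasi-likelihood tests with TMM scaling. The 9 libraries of each RNA type were fitted together with treatment as the factor, and the Benjamini-Hochberg adjustment ran over the 11243 genes, at the study's threshold of 0.25. Translation efficiency was the interaction of RNA type and treatment over all 18 libraries, with a fold of at least 1.2, since the study's own tool, anota2seq, was not used here. Alternatives were RLE scaling, DESeq2 1.42.0, an analysis of partial variance with limma 3.58.1, a mean count of at least 10, a threshold of 0.05, only the 2 treatments compared, each experiment left out, and the experiment or lysate as a block. The GC correction was added after seeing the data. It took a loess curve of each library's deviation from the gene mean on transcript GC content (10745 genes with a GENCODE model) as an offset, and by its construction it also removes any difference between groups that follows GC content. The tests of LPS against Veh were checked on simulated counts, as was polysome-associated against total mRNA with LPS under the lysate block. The simulated libraries were independent, without effects of experiment or lysate. Comparisons with torin1 and the block with the GC correction were not simulated.

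Same-numbered libraries come from 1 experiment, and total and polysome libraries from 1 lysate. The deviations of same-numbered libraries from their group means had a mean correlation of 0.417 in total and 0.321 in polysome-associated mRNA, and those of the 2 libraries of a lysate of 0.58. Experiments were independent cultures of 1 cell line. For treatments compared within an RNA type without a block, p-values measure the spread between them. The main fits of translation efficiency and of polysome-associated against total mRNA did not pair the 2 libraries of a lysate. With the lysate block, p-values measure the spread of differences within lysates. The 10 genes and the gene lists were chosen with earlier results of these data known. The named genes were all 10, up to 3 called rises and 3 called falls per list with LPS in total mRNA, ranked by size, and the 2 most alike genes of each of the 10.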

Additional observations from a re-analysis of the deposited data

How the results depend on the processing

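Of the 10 genes, the number called in each comparison stayed within 1.5 times its value under RLE scaling, the filter on low counts and DESeq2, and in the 6 comparisons of treatments within an RNA type also in the fit of only the 2 treatments compared, and no log2 fold change changed sign with a call there. The GC correction and its combination with the replicate block were chosen after seeing the data. With LPS, 9 instead of 5 genes were called in polysome-associated mRNA under both. With torin1 against LPS, 7 instead of 4 were called in total mRNA under the block with the correction, and 5 instead of 3 in polysome-associated mRNA under the replicate block with and without it. Calls over all genes also rose against the main fit. With LPS in polysome-associated mRNA the correction gave 6796 and the block with it 7786 of 10745 genes, beside 6191 of 11243. With torin1 against LPS in total mRNA the block with the correction gave 7499 of 10745, beside 6038 of 11243. In polysome-associated mRNA the block gave 5587 of 11243 and the block with the correction 6969 of 10745, beside 4322 of 11243. In polysome-associated against total mRNA, the calls of 5, 2 and 2 in Veh, LPS and LPS_Torin1 became 1, 1 and 1 with the correction, 9 with LPS and 7 with LPS_Torin1 under the block, 5 with LPS and 7 with LPS_Torin1 under the block with the correction, and 0, 0 and 1 at a threshold of 0.05. Over all genes the correction gave 5772, 6028 and 5519 calls of 10745, and the threshold of 0.05 gave 5521, 4841 and 3481 of 11243. With LPS and LPS_Torin1 the block gave 8647 and 7926 of 11243, and the block with the correction 7709 and 7518 of 10745. The pairing changed no other count of calls among the 10 genes by over 1.5 times. The cause was not tested.

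Leaving out each experiment in turn gave 1 to 4 calls for torin1 against LPS in polysome-associated mRNA, 0 to 1 for translation efficiency of LPS_Torin1 against Veh, and 2 to 5 in Veh, 1 to 2 in LPS and 1 to 3 in LPS_Torin1 for polysome-associated against total mRNA. Over all 11243 genes the first 2 of these gave 1187 to 5182 and 0 to 430 calls. Polysome-associated against total mRNA gave 6162 to 7860 in Veh, 5501 to 6835 in LPS and 4947 to 5237 in LPS_Torin1. In polysome-associated mRNA, leaving out an experiment gave log2 fold changes from −0.67 to 0.94 for Jund with LPS, from −1.04 to 1.04 for Junb and from −0.70 to 1.08 for Jund with LPS_Torin1 against Veh, the lowest without experiment 2 and the highest without experiment 1. In polysome-associated against total mRNA, signs turned with the GC correction for Fosl2 in Veh (−0.0050) and Jund with LPS (−0.09), and under the block with the correction for Fosl2 (−0.0026) and Maff (−0.39) in Veh, Jund (−0.077) and Junb (−0.34) with LPS, and Junb (−0.29) and Myc (−0.16) with LPS_Torin1.

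Over all genes, a threshold of 0.05 gave 3279 instead of 6038 calls for torin1 against LPS in total mRNA, 1557 instead of 4322 in polysome-associated mRNA, 3654 instead of 6191 with LPS and 3950 instead of 6546 with LPS_Torin1 against Veh in polysome-associated mRNA, and 4841 instead of 7328 with LPS and 3481 instead of 6252 with LPS_Torin1 for polysome-associated against total mRNA. Without experiment 3 torin1 against LPS gave 3959 calls in total and 1187 in polysome-associated mRNA and LPS_Torin1 against Veh 4156 in polysome-associated mRNA, and without experiment 1 they were 1782 for torin1 against LPS and 3901 for LPS in polysome-associated mRNA. The block with the correction gave 6969 for torin1 against LPS in polysome-associated mRNA and 0, 32 and 13 for translation efficiency, which was 430 for LPS_Torin1 against Veh without experiment 2. The 10 genes had 49 counts or more in each library, and no test at reduced depth was made.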
